A study of Homo sapiens with 12 samples.

Results

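HEK-293T is a widely used human cell line whose lineage identity is mixed, and the genes described here are 39 markers of 6 kinds of cell or tissue that bear on it. They comprise 10 transcription factors and cofactors of kidney development, 4 genes of the differentiated nephron, 7 neuronal genes, 4 genes of the adrenal gland and of catecholamine synthesis, 7 epithelial genes and 7 mesenchymal genes. The members were chosen by gene symbol from general knowledge of these tissues, but with earlier results of these data known. All 39 were found among the 56611 gene symbols of the abundance tables. Their level is given as TPM, the length-normalized transcript abundance in the deposited tables, summed over the transcript models of each gene.

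Messenger RNA was sequenced in 12 libraries that form 4 groups of 3. All cells were HEK-293T, a line made from human embryonic kidney that carries the SV40 large T antigen, and all held a CIRTS effector, a protein assembled from human parts that a guide RNA steers to a chosen transcript. In YTHDF2-SMARCA4 the effector was named YTHDF2 (CIRTS-3) and the guide was directed against SMARCA4. In YTHDF2-NT the same effector was combined with a non-targeting (NT) guide. In nuclease-SMARCA4 the effector was named a nuclease (CIRTS-12), with the guide against SMARCA4. In nuclease-NT that nuclease was combined with the NT guide. The other protein parts of the effectors are not named in the labels, and untransfected cells are not among the groups, so each level below is that of cells carrying an effector and a guide. The 3 libraries of a group are named biological replicates, but cultures, dates and batches are not labelled. The p-values therefore reflect the spread among these libraries, which may be technical, and effects of the effector and of any batch made with it cannot be told apart.

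Nephrons form from a mesenchymal progenitor pool that is marked by SIX2, SALL1, EYA1 and WT1, while PAX2, PAX8, LHX1 and GATA3 act in the nephric duct and in the epithelia that derive from it. Neurofilaments are the intermediate filaments of neurons, built from the light, medium and heavy chains and alpha-internexin. Simple epithelia build keratin filaments from KRT8 and KRT18, whereas mesenchymal cells build vimentin filaments. HEK-293 and its derivatives are known to hold filaments of more than 1 of these classes, and an origin from a neural crest or adrenal cell in the kidney culture has been proposed for the line.

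Library totals lay between 9207196 and 18047859 estimated counts. The targeted gene SMARCA4 had 210.2 to 243.4 CPM, which are counts scaled to the library total, in YTHDF2-SMARCA4, against 234.8 to 302.4 CPM in YTHDF2-NT. With the nuclease it had 219.6 to 250 CPM for the SMARCA4 guide, against 225.4 to 245.1 CPM for the NT guide. The log2 fold change of SMARCA4 for its guide was -0.22 (SE 0.0947, adjusted p = 0.703, edgeR quasi-likelihood test) with YTHDF2 and -0.01 (SE 0.0948, adjusted p = 0.985) with the nuclease, so neither passed the test. YTHDF2-NT 1 and YTHDF2-NT 2 stood apart from the other libraries, on opposite sides. The rank correlation across 11482 genes between transcript length and a gene's deviation from its mean was -0.63 for the first and 0.61 for the second of them, and between -0.34 and 0.44 for the 10 others; genes are not independent replicates. The first principal component held 41.0% of the variance and placed YTHDF2-NT 1 at 37.4 and YTHDF2-NT 2 at the other end, at -19.8, with the others between -10.25 and 9.17. Among markers of other cell types, 2 of 8 blood, 1 of 6 muscle and 2 of 5 pluripotency and germ layer markers averaged at least 1 TPM, against 0 of 6 endothelial and 0 of 5 liver markers. The blood marker PTPRC had 1.06 counts in all 12 libraries together and HBB had 0, while the muscle gene ACTN2 was at 4.67 TPM and the pluripotency genes LIN28B and DPPA4 at 15.5 and 7.25 TPM. The 3 other pluripotency and germ layer markers, POU5F1, NANOG and LIN28A, averaged 0.1 to under 1 TPM.

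Of the 39 markers, 22 averaged at least 1 TPM over the 12 libraries, which is 56.4% of them, against 25.7% of all gene symbols (14562 of 56611). Those symbols include pseudogenes and noncoding genes, and 21986 of them averaged 0 TPM, so the shares are not like for like. A share over protein-coding genes alone was not computed. At 1 TPM or more stood 8 of the 10 kidney development genes, 5 of the 7 neuronal genes, 4 of the 7 epithelial genes and 5 of the 7 mesenchymal genes, but 0 of the 4 differentiated nephron genes and 0 of the 4 adrenal and catecholamine genes. A level of at least 1 TPM in every library was reached by 20 members, and 12 averaged at least 10 TPM. A further 7 members averaged 0.1 to under 1 TPM. The remaining 10 averaged under 0.1 TPM, and 4 of these (UMOD, TH, DBH and KRT7) had 0 estimated counts in all 12 libraries. A gene with 0 counts may still have up to 3 counts in the 160831706 of all libraries, which allows 0.0187 CPM; this limit covers counting error only. In RNA from whole cultures, a low level in every cell and a higher level in few cells cannot be told apart. The renal, neural and epithelial headings thus each held members at 1 TPM or more, while the data go against a renal label for the differentiated nephron genes and PAX8. Each heading also held other members under 1 TPM. These were OSR1 of the kidney development genes, NEFH and STMN2 of the neuronal genes, and the 4 adrenal and catecholamine genes. Of the epithelial genes they were KRT17, KRT19 and KRT7.

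**Figure D1:**
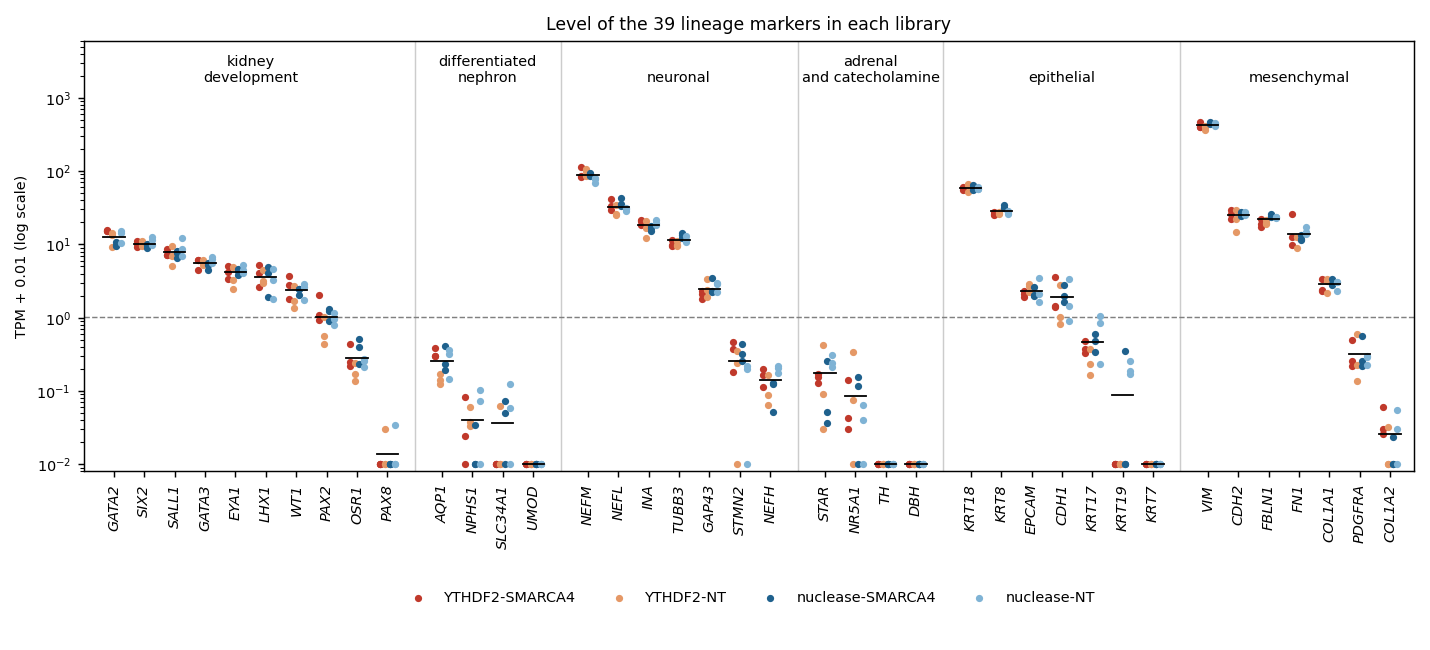
TPM + 0.01 of each member on a logarithmic axis, 1 point per library coloured by group, with a black bar at the mean of 12 libraries and a dashed line at 1 TPM. Within each block the members run from high to low, and VIM at 425 TPM and NEFM at 89.2 TPM stand highest, while UMOD, TH, DBH and KRT7 lie at 0 TPM in every library.

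Promoter sequences are shown for members at both ends of this range. RefSeq promoter windows (GRCh38.p14), from 250 bases before to 50 bases after a start, were matched by symbol for 21 members, which have 34 windows. The 5 windows below were chosen after the levels were seen, from members whose measured TPM came wholly from transcript models starting in the window or which were at 0 TPM. INA and SIX2 are well expressed, PAX8 and SLC34A1 are near 0 TPM and UMOD at 0 TPM. Each is written 5′ to 3′ on the strand of the gene, with every CG dinucleotide in capitals.
INA, chr10:103276888-103277187, plus strand: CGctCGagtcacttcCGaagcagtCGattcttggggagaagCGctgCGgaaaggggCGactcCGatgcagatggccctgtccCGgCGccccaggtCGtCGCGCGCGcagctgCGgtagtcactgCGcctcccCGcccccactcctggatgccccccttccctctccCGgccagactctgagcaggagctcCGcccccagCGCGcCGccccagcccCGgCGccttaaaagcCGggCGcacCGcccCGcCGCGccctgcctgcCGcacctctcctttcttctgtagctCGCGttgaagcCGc
SIX2, chr2:45009403-45009702, minus strand: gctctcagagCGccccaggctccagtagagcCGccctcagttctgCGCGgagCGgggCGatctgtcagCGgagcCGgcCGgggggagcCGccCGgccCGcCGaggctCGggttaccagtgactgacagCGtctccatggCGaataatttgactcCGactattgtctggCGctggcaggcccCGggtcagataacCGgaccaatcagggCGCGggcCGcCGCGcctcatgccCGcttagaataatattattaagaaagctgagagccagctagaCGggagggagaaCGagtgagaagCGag
PAX8, chr2:113278872-113279171, minus strand: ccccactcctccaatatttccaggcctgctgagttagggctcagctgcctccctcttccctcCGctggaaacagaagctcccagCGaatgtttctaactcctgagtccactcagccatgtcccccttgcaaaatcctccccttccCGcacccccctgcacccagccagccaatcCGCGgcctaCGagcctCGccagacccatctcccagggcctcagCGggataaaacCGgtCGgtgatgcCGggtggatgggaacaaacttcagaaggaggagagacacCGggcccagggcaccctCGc
SLC34A1, chr5:177384184-177384483, plus strand: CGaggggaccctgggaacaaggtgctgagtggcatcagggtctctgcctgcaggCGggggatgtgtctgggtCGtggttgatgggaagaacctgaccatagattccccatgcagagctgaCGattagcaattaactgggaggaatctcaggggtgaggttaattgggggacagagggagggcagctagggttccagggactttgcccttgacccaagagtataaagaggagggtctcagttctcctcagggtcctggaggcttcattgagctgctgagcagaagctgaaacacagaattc
UMOD, chr16:20352666-20352965, minus strand: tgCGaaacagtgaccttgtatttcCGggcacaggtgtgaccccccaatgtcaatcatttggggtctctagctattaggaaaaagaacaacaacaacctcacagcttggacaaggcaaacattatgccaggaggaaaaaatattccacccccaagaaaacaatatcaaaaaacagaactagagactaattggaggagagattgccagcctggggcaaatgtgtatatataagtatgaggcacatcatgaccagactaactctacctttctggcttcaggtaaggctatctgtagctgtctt
The INA window holds 35 CG dinucleotides and that of SIX2 holds 29, against 13 for PAX8, 4 for SLC34A1 and 2 for UMOD. Expressed as the ratio of CG dinucleotides found to those expected from the C and G content, these are 0.96 for INA and 0.95 for SIX2, against 0.48 for PAX8, 0.19 for SLC34A1 and 0.14 for UMOD. GAP43 and DBH also met the rule and are not printed. GAP43, at 2.49 TPM, has 7 CG dinucleotides, fewer than PAX8, and a ratio of 0.51. DBH, at 0 TPM, has 8 and a ratio of 0.30. A ratio of at least 0.6 was found in 12 of the 25 windows of members at 1 TPM or more (48%) and in 1 of the 9 windows of members under 1 TPM (11.1%), against 48.9% of all 35116 promoter windows. Windows of the same gene are counted separately, and several, among them both of CDH2 and both of PAX2, held the start of no transcript model with measured TPM. The ratio did not follow the level in every member: the KRT8 window, with 10.25% of a gene level of 28.2 TPM, had the lowest of all 34 windows, 0.11, and that of VIM, with 5.44% of its 425 TPM, had 0.58. The letters TATAAA, searched on both strands, stand in the SLC34A1 window 31 bases before the start, in 4 of the 34 members' windows (11.8%) and in 11.5% of all promoter windows.

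Among the kidney development genes, SIX2, SALL1 and EYA1 of the progenitor pool were present in every library. SIX2 (chromosome 2, 45005161 to 45009430, minus strand, GRCh38), a homeobox factor that keeps nephron progenitors undifferentiated, had 9.09, 11.1 and 10.03 TPM in YTHDF2-SMARCA4, 9.48, 9.74 and 10.99 TPM in YTHDF2-NT, 8.89, 9.98 and 9.84 TPM in nuclease-SMARCA4, and 11.3, 12.7 and 9.79 TPM in nuclease-NT. The 4 groups overlapped, and the mean was 10.2 ± 1.09 TPM (SD, n = 12). SALL1, a zinc finger factor needed for ureteric bud outgrowth, averaged 7.87 ± 1.75 TPM, with the lowest value, 5.09 TPM, in YTHDF2-NT 1 and the highest, 12.1 TPM, in nuclease-NT 2. In CPM nuclease-NT 2 did not stand out for SALL1, at 25.68 beside 24.48 and 25.54 in its group. The highest CPM was 29.39, in nuclease-SMARCA4 1. EYA1, a phosphatase and coactivator that works with SIX2, averaged 4.15 ± 0.80 TPM and WT1, a zinc finger factor of the metanephric mesenchyme and the podocyte, 2.35 ± 0.65 TPM. OSR1, which marks the earlier intermediate mesoderm, was at 0.269 ± 0.111 TPM, and SIX2 was 38.1 times as high by the ratio of means.

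The duct and tubule regulators were uneven. GATA2 (chromosome 3, 128479427 to 128493185, minus strand), a zinc finger factor of urogenital and blood development, had 15.3, 15.6 and 15.3 TPM in YTHDF2-SMARCA4, 9.35, 14.5 and 13.6 TPM in YTHDF2-NT, 9.86, 9.61 and 10.7 TPM in nuclease-SMARCA4, and 10.4, 15.01 and 14.4 TPM in nuclease-NT. Its TPM values were close together in each SMARCA4-guide group and scattered in each NT group, where 1 library of 3 was low. With the nuclease the counts did not show this pattern. GATA2 had 21.15, 20.15 and 25.39 CPM in nuclease-SMARCA4, against 23.47, 27.51 and 27.75 CPM in nuclease-NT. With YTHDF2 the NT libraries were also the more scattered in CPM, at 26.1 to 30.2, against 29.5 to 32.1 for GATA2 in YTHDF2-SMARCA4. GATA3, its relative in the nephric duct, averaged 5.61 ± 0.70 TPM, and the ratio of GATA2 to GATA3 had a median of 2.37 and ran from 1.56 to 3.49 over the libraries. LHX1, a LIM homeobox factor of the duct and the early nephron, averaged 3.58 ± 1.16 TPM with a range from 1.80 to 5.26 TPM.

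The paired box factors PAX2 and PAX8, which act together at the start of kidney formation, differed most. PAX2 (chromosome 10, 100735603 to 100829941, plus strand) had 0.913, 2.04 and 1.09 TPM in YTHDF2-SMARCA4, 0.549, 1.009 and 0.432 TPM in YTHDF2-NT, 0.886, 1.31 and 1.23 TPM in nuclease-SMARCA4, and 1.16, 0.783 and 0.946 TPM in nuclease-NT. It lay around the threshold, at or above 1 TPM in 6 of 12 libraries. PAX8 had 2 counts in all 12 libraries together, 1 in nuclease-NT 1 and 1 in a YTHDF2-NT library, a mean of 0.0038 TPM. Its antisense neighbour PAX8-AS1, whose exons overlap those of PAX8 over 685 bases, was listed at 0.499 TPM.

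The differentiated nephron genes were near or at 0. AQP1, the water channel of the proximal tubule and thin descending limb, averaged 0.247 ± 0.102 TPM. NPHS1, the nephrin of the podocyte slit diaphragm, had 15.8 estimated counts in all and SLC34A1, the phosphate transporter of the proximal tubule, had 7. UMOD, the uromodulin of the thick ascending limb, had 0. The exons of NPHS1 overlap those of APLP1 on the other strand over 232 bases, and APLP1 was at 27.6 TPM. Whether the counting used strand is not stated in the labels, and the source of those NPHS1 counts was not tested.

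The neuronal genes held 4 of the 12 members at 10 TPM or more. NEFM, the medium neurofilament chain (chromosome 8, 24913012 to 24919098, plus strand), had 112, 81.8 and 85.8 TPM in YTHDF2-SMARCA4, 106, 85.5 and 102 TPM in YTHDF2-NT, 92.8, 92.5 and 84.4 TPM in nuclease-SMARCA4, and 68.8, 79.6 and 79.1 TPM in nuclease-NT. The nuclease-NT libraries were the lowest of all 12, and the other 3 groups overlapped. NEFL, the light chain (chromosome 8, 24950955 to 24957110, minus strand), had 41.0, 29.1 and 33.0 TPM in YTHDF2-SMARCA4, 25.2, 34.95 and 25.8 TPM in YTHDF2-NT, 42.5, 35.9 and 32.9 TPM in nuclease-SMARCA4, and 31.6, 28.4 and 30.7 TPM in nuclease-NT. Both chains were thus high in every library, at 89.2 ± 12.4 TPM for NEFM and 32.6 ± 5.41 TPM for NEFL. The ratio of NEFM to NEFL had a median of 2.59 and ran from 2.18 to 4.20. The heavy chain NEFH, which is added to neurofilaments as neurons mature, was at 0.132 ± 0.0561 TPM, and NEFM was 673.9 times as high by the ratio of means.

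INA, alpha-internexin, the neurofilament protein of early neurons (chromosome 10, 103277163 to 103290351, plus strand), had 20.8, 21.5 and 18.3 TPM in YTHDF2-SMARCA4, 12.3, 20.98 and 16.7 TPM in YTHDF2-NT, 16.7, 14.99 and 17.6 TPM in nuclease-SMARCA4, and 18.2, 21.7 and 19.4 TPM in nuclease-NT. It has a single transcript model, and YTHDF2-NT 1 gave the lowest value. TUBB3, the neuronal class of beta-tubulin, averaged 11.4 ± 1.63 TPM and GAP43, a growth cone protein, 2.49 ± 0.55 TPM. STMN2, a microtubule-binding stathmin of growing axons, was at 0.244 ± 0.146 TPM, with 0 counts in 2 libraries.

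Of the adrenal and catecholamine genes, TH and DBH, the enzymes that make dopa and noradrenaline, had 0 counts in every library. NR5A1, the steroidogenic factor of adrenal cortex and gonad, had 20 counts in all, in 9 libraries. STAR, the carrier of cholesterol into mitochondria, averaged 0.166 ± 0.120 TPM on 40.0 counts in all. Its exons overlap those of ASH2L on the other strand over 338 bases, and ASH2L was at 43.1 TPM; the part of that overlap in the STAR counts was not tested.

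Among the epithelial genes the paired keratins of simple epithelium dominated. KRT18 (chromosome 12, 52948871 to 52952901, plus strand) had 59.3, 60.5 and 55.0 TPM in YTHDF2-SMARCA4, 67.7, 52.4 and 64.4 TPM in YTHDF2-NT, 55.9, 63.8 and 60.8 TPM in nuclease-SMARCA4, and 56.6, 57.4 and 61.1 TPM in nuclease-NT. Its partner KRT8 (chromosome 12, 52897187 to 52949954, minus strand) had 27.6, 26.1 and 24.8 TPM in YTHDF2-SMARCA4, 27.1, 25.8 and 27.6 TPM in YTHDF2-NT, 31.1, 31.8 and 34.8 TPM in nuclease-SMARCA4, and 28.5, 25.8 and 27.8 TPM in nuclease-NT. KRT18 varied little between groups, and for KRT8 the 3 nuclease-SMARCA4 libraries were the highest of all in TPM. In CPM the highest KRT8 value was 40 in YTHDF2-NT 1, against 35.15, 38.11 and 36.26 in nuclease-SMARCA4. The median ratio of KRT18 to KRT8 was 2.18, with a range from 1.75 to 2.50. The genes are neighbours whose exons overlap over 525 bases on opposite strands, and the tables also list 67 KRT18 and 50 KRT8 processed pseudogenes that can share reads with them. Those pseudogenes summed to 1.87 TPM for KRT18 and 3.24 TPM for KRT8.

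The other epithelial genes were low. EPCAM, an epithelial adhesion molecule, averaged 2.34 ± 0.50 TPM. CDH1, the epithelial cadherin, had 1.45, 1.41 and 3.60 TPM in YTHDF2-SMARCA4, 1.02, 2.82 and 0.823 TPM in YTHDF2-NT, 2.82, 1.98 and 1.60 TPM in nuclease-SMARCA4, and 3.35, 0.883 and 1.43 TPM in nuclease-NT. Its coefficient of variation of 50.3% was the highest of the 22 members at 1 TPM or more, with 1 high library in 3 of the groups. In CPM the pattern differed in 2 of these groups. CDH1 had 5.66, 4.38 and 5.89 CPM in YTHDF2-SMARCA4, and 6.06, 3.40 and 5.05 CPM in nuclease-NT. In YTHDF2-NT it had 4.80, 6.65 and 2.36 CPM, again with YTHDF2-NT 2 highest. KRT17, a keratin of basal and appendage epithelium, was at 0.449 ± 0.258 TPM, KRT19 had 4 counts in all, and KRT7, a keratin of simple ductal epithelium, had 0.

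The mesenchymal list held the member with the highest level. VIM (chromosome 10, 17228259 to 17237593, plus strand), the vimentin of mesenchymal filaments, had 463, 394 and 399.8 TPM in YTHDF2-SMARCA4, 368, 413 and 405 TPM in YTHDF2-NT, 468, 437 and 452 TPM in nuclease-SMARCA4, and 414, 436 and 449.7 TPM in nuclease-NT. It ranked 307th of all genes by mean TPM and had the smallest coefficient of variation of the members at 1 TPM or more, 7.25%. VIM was 7.34 times as high as KRT18 at the median of the libraries (5.43 to 8.37). CDH2, the neural and mesenchymal cadherin, averaged 25.1 ± 4.01 TPM and exceeded CDH1 in every library, by a median factor of 15.4 (6.22 to 29.9). That ratio uses TPM, in which the CDH1 libraries scattered otherwise than in CPM.

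The matrix genes of the mesenchymal list were unequal. FBLN1, a fibulin of basement membranes, averaged 21.9 ± 2.65 TPM. FN1, fibronectin, averaged 13.8 ± 4.47 TPM, with 26.3 TPM in YTHDF2-SMARCA4 1 and at most 17.1 TPM in any other library. The chains of type I collagen, which assemble together in fibroblasts, were at 2.85 ± 0.46 TPM for COL1A1 and 0.0157 ± 0.0177 TPM for COL1A2, a ratio of means of 181.6. The 14.5 counts of COL1A2 all fell on a retained-intron model. PDGFRA, a growth factor receptor of mesenchyme, was at 0.307 ± 0.150 TPM.

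**Figure D2:**
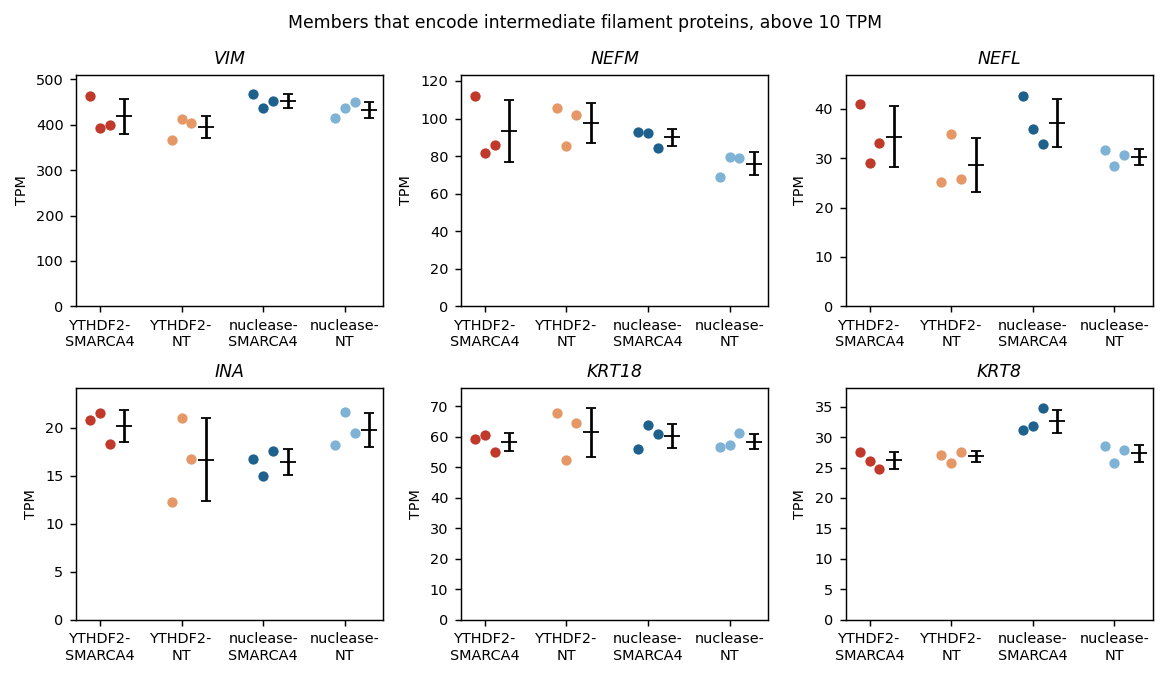
TPM of 6 members that encode intermediate filament proteins, 1 point per library in 4 groups of 3, with the group mean and SD beside the points; every axis starts at 0. The filament genes of mesenchyme (VIM), neurons (NEFM, NEFL, INA) and simple epithelium (KRT18, KRT8) were all above 10 TPM in every library, and KRT8 was highest in nuclease-SMARCA4 at 31.1 to 34.8 TPM. In CPM, YTHDF2-NT 1 had the highest KRT8 value.

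How far these levels stand for mRNA that can be translated varies between the members. For 8 of the 22 members at 1 TPM or more, under 75% of the TPM lay on protein-coding transcript models. FN1 was the extreme, with 39.03%: 2 retained-intron models took 29.6% and 19.1% of its TPM, and its coding models alone amounted to 5.38 TPM. GATA2 had 51.8% on coding models, with 48.2% on the processed transcript GATA2-204, and KRT8 had 56.8%, with 35.3% on a retained-intron model. LHX1 stood at 54.9%, CDH1 at 57.9%, EPCAM at 68.5%, COL1A1 at 70.4% and PAX2 at 72.7%. On coding models alone PAX2 was at 0.748 TPM, so 21 members reached 1 TPM. By contrast VIM, NEFL, KRT18, INA, SIX2, WT1, GAP43 and CDH2 had 99.45% or more on coding models.

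The split among the models of 1 gene was stable for few members. VIM-201 took 94.0% of the VIM TPM (92.5 to 95.2% over the libraries), KRT18-202 took 88.5% (78.8 to 93.5%) and NEFM-202 took 68.0% (62.8 to 83.6%). For other members the leading model changed between libraries: EYA1-203 took 0.009 to 100%, CDH1-201 took 1.05 to 90.1% and CDH2-202 took 3.85 to 64.1%. Sums per gene are therefore used throughout. A short model can also weigh on such a sum, as SALL1-204 of 565 bases made up 32.3% of the SALL1 TPM on a mean of 12.7 estimated counts.

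**Figure D3:**
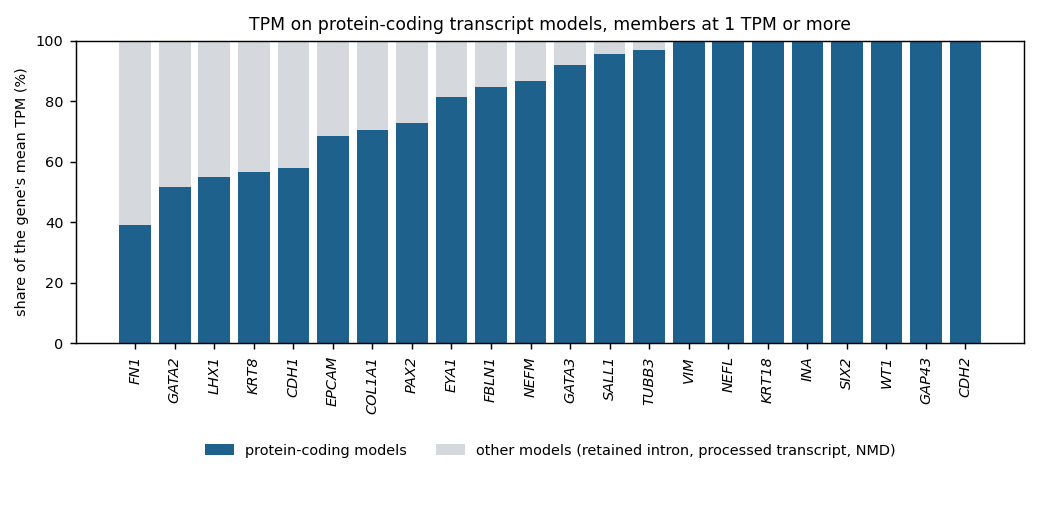
Share of the mean TPM of each of the 22 members at 1 TPM or more that lies on protein-coding transcript models (blue) and on other models (grey), in percent of 12 libraries. FN1 has the smallest coding share, 39.03%, followed by GATA2 at 51.8%, and 8 members lie under 75%.

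The spread of the members over the 12 libraries was set beside that of all genes at their level. The median coefficient of variation was 16.3% for the 22 members at 1 TPM or more and 17.4% for all genes at that level. In the range from 1 to 5 TPM it was 24.9% for 8 members and 29.1% for all genes, and from 5 to 20 TPM it was 15.6% for 7 members and 17.8% for all genes. At 10 TPM or more it was 14.1% for 12 members and 12.8% for all genes. The library YTHDF2-NT 1 gave the lowest TPM of the 12 for 9 of these 22 members, the most of any library, and the highest for 1.

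The design asks, within each effector, whether a guide against SMARCA4 changes the transcriptome relative to a non-targeting guide, and the lineage markers were read in those comparisons. Estimated counts per gene were tested with edgeR over all 16297 genes that passed the filter on low counts, and a gene was called at an adjusted p below 0.05. Of the 39 members 25 passed the filter, among them 9 of the kidney development genes, 5 neuronal, 5 epithelial and 6 mesenchymal genes; the 14 others, with too few counts, were not tested. The comparisons share libraries and are not independent of each other. Values below are CPM, which compare a gene between libraries and not genes with each other, and log2 fold changes of counts.

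With the nuclease, 0 of 25 members were called for the SMARCA4 guide over the NT guide by edgeR, where 0.00614% of all genes tested were called; DESeq2 and limma on TPM also called 0. At an unadjusted p below 0.05 there were 8 members of 25, against 10.9% of all genes tested, and the libraries of the groups did not overlap for 10 members, against 25.1% of all genes. The median log2 fold change was 0.12 over the 25 members and close to 0 over all genes. All 6 mesenchymal members tested had positive fold changes, with a median of 0.17, with TMM as with DESeq2 size factors, but on log2(TPM + 1) 2 of 5 were negative and with length-scaled TPM 1 of 6 was. Of the 5 neuronal members 4 were positive, with a median of 0.29, also with DESeq2 size factors, and 3 were on log2(TPM + 1), while the kidney development genes had a median close to 0. In wider lists of the same cell types, 11 of 18 other mesenchymal and 10 of 20 other neuronal genes tested were positive, as were 8134 of all 16297 genes. The 3 smallest p-values were those of PDGFRA, NEFL and NEFM. PDGFRA had 1.46, 1.06 and 1.38 CPM in nuclease-SMARCA4, against 0.622, 0.544 and 0.526 CPM in nuclease-NT (log2 fold change 1.18, SE 0.331, adjusted p = 0.223, edgeR), and it had at most 20 counts in a library. NEFL had 110.5, 101.4 and 88.3 CPM in nuclease-SMARCA4, against 80.8, 73.3 and 79.0 CPM in nuclease-NT (0.37, SE 0.107, adjusted p = 0.235). NEFM had 200.6, 203.2 and 171.3 CPM in nuclease-SMARCA4, against 148.2, 144 and 147.2 CPM in nuclease-NT (0.39, SE 0.136, adjusted p = 0.33). In these 3 genes every nuclease-SMARCA4 library was above every nuclease-NT library, and none passed the adjusted test. Fitted on the 6 nuclease libraries alone, 2 of 23 members, NEFL and NEFM, passed it, where 3.57% of all genes did. Without the filter on low counts the same 2 passed of 35, where 0.963% of all genes did.

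With YTHDF2, 0 of 25 members were called for the SMARCA4 guide over the NT guide by edgeR, as were 0% of all genes tested, and DESeq2 and limma on TPM called 0. At an unadjusted p below 0.05 there were 2 members, against 6.82% of all genes tested, and 2 members did not overlap between the groups, against 9.27% of all genes. The smallest p-values belonged to NEFM, EPCAM and FN1. NEFM had 216.3, 164 and 181.6 CPM in YTHDF2-SMARCA4, against 286.5, 187.5 and 232.6 CPM in YTHDF2-NT (log2 fold change -0.33, SE 0.135, adjusted p = 0.703, edgeR). Over 22 alternatives of filter, scaling, method or libraries this NEFM fold change ran from -0.46 to -0.07. EPCAM had 1.998, 2.29 and 2.75 CPM in YTHDF2-SMARCA4, against 3.52, 3.08 and 3.94 CPM in YTHDF2-NT (-0.57, SE 0.235, adjusted p = 0.703). EPCAM did not overlap between the groups, while NEFM did. FN1 had 42.5, 31.1 and 28.1 CPM in YTHDF2-SMARCA4, against 19.0, 36.0 and 22.9 CPM in YTHDF2-NT (0.38, SE 0.201, adjusted p = 0.706). Here YTHDF2-NT 2 lay among the YTHDF2-SMARCA4 libraries for FN1 and NEFM. Without that library 3 of 26 members, FN1, KRT18 and NEFM, were called, where 9.46% of all genes tested (1585) were.

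**Figure D4:**
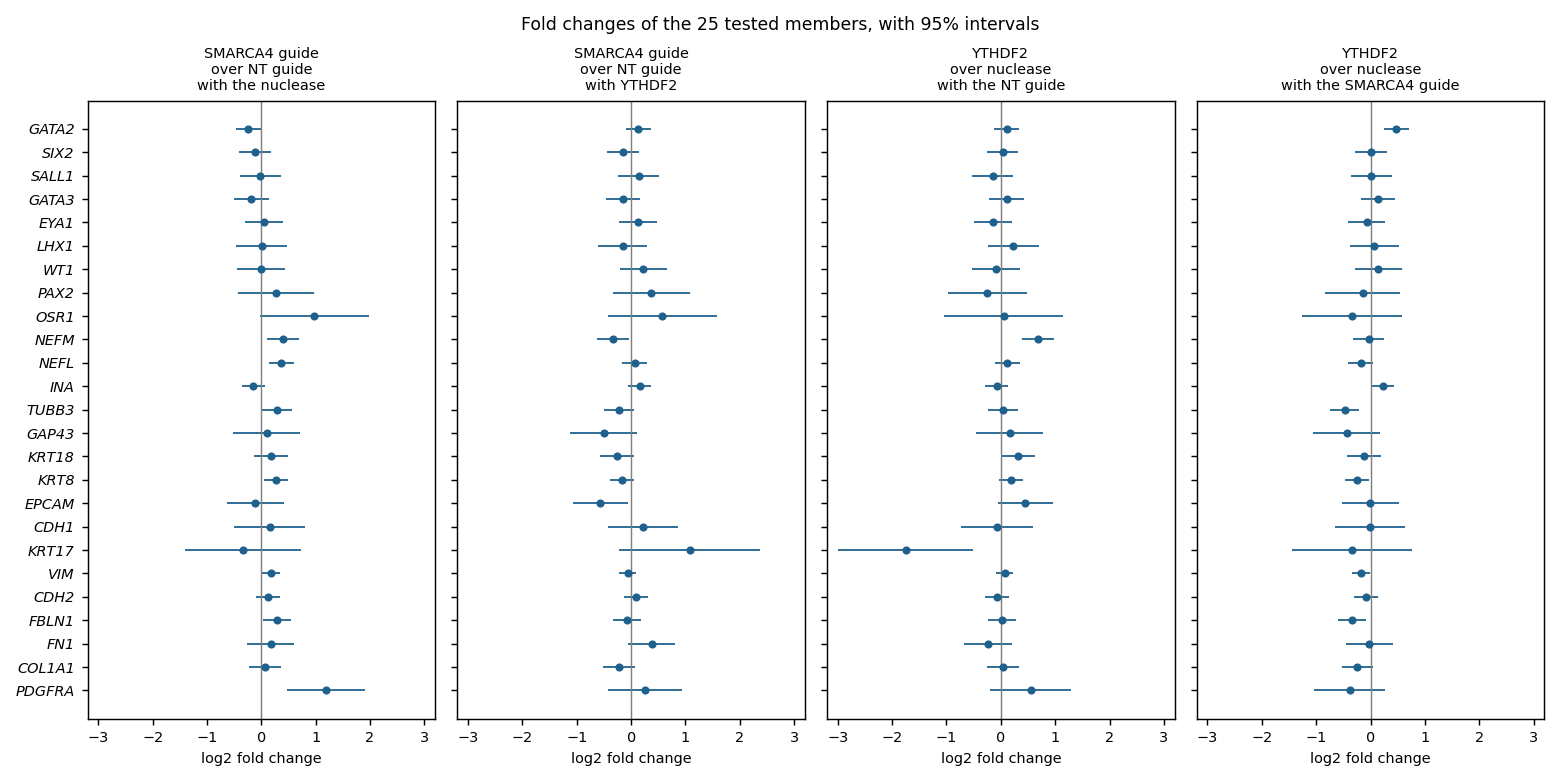
Log2 fold change of the 25 tested members with 95% intervals, in 4 panels: the SMARCA4 guide over the NT guide with the nuclease and with YTHDF2, and YTHDF2 over the nuclease with each guide; the vertical line marks 0. Most intervals include 0, KRT17 and OSR1 have the widest ones, and the NEFM fold change is 0.69 for YTHDF2 over the nuclease with the NT guide.

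YTHDF2 was also set against the nuclease at each guide. With the NT guide 0 of 25 members were called by edgeR, where 0.0491% of all genes tested were called (8 genes); DESeq2 called 1 member, NEFM, and 0.571% of all genes, and limma on TPM called 0 members. At an unadjusted p below 0.05 there were 3 members, against 10.9% of all genes tested, and 3 members did not overlap between the groups, against 12.8%. NEFM had 286.5, 187.5 and 232.6 CPM in YTHDF2-NT, against 148.2, 144 and 147.2 CPM in nuclease-NT. All YTHDF2-NT libraries were higher, by a log2 fold change of 0.69 (SE 0.136, 95% interval 0.39 to 0.98, adjusted p = 0.13, edgeR). Over 22 alternatives of filter, scaling, method or libraries this NEFM fold change ran from 0.36 to 0.81. KRT17 had 0.24, 0.249 and 0.143 CPM in YTHDF2-NT, against 0.855, 1.02 and 0.21 CPM in nuclease-NT (-1.75, SE 0.578, adjusted p = 0.31), with 15 counts at most in a library. KRT18 had 102.6, 59.9 and 81.7 CPM in YTHDF2-NT, against 63.6, 64.0 and 69.2 CPM in nuclease-NT (0.31, SE 0.145, adjusted p = 0.458), and its groups overlapped. The values of YTHDF2-NT 1 were the highest of the group for NEFM and KRT18 and those of YTHDF2-NT 2 the lowest, in the same order as the libraries on the first principal component; the part of that component in these differences was not tested. Without YTHDF2-NT 2, FN1, KRT18 and NEFM were called of 26 members tested, where 9.61% of all genes were.

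With the SMARCA4 guide, 0 of 25 members were called for YTHDF2 over the nuclease by edgeR, where 0.00614% of all genes tested were called; DESeq2 called 1 member, GATA2, and 0.626% of all genes, and limma on TPM called 0 members. At an unadjusted p below 0.05 there were 6 members, against 11.5% of all genes tested, and 6 did not overlap between the groups, against 26.7%. GATA2 had 31.0, 32.1 and 29.5 CPM in YTHDF2-SMARCA4, against 21.1, 20.1 and 25.4 CPM in nuclease-SMARCA4 (log2 fold change 0.47, SE 0.107, 95% interval 0.24 to 0.70, adjusted p = 0.209, edgeR). TUBB3 had 13.9, 14.8 and 13.9 CPM in YTHDF2-SMARCA4, against 18.2, 22.1 and 19.0 CPM in nuclease-SMARCA4 (-0.48, SE 0.126, adjusted p = 0.243). FBLN1 had 38.4, 36.2 and 41.1 CPM in YTHDF2-SMARCA4, against 47.5, 52.8 and 46.4 CPM in nuclease-SMARCA4 (-0.34, SE 0.120, adjusted p = 0.337). None of these 3 genes overlapped between the groups, with GATA2 higher and TUBB3 and FBLN1 lower in each YTHDF2-SMARCA4 library, and none passed the adjusted test. All 6 mesenchymal members tested had negative fold changes, with a median of -0.21, also with DESeq2 size factors, but 2 of 5 were positive on log2(TPM + 1) and 1 of 6 with length-scaled TPM. All 5 epithelial members had negative fold changes, with a median of -0.12, by TMM, DESeq2 size factors and, for the 4 tested there, TPM, but 1 turned positive with the length trend removed. In the wider lists 13 of 18 other mesenchymal and 7 of 14 other epithelial genes tested were negative, as were 8124 of all 16297 genes. Fitted on these 6 libraries alone, GATA2, TUBB3 and FBLN1 passed of 24 members tested, where 4.25% of all genes did. The GATA2 locus also holds GATA2-AS1, listed at 7.07 TPM.

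**Figure D5:**
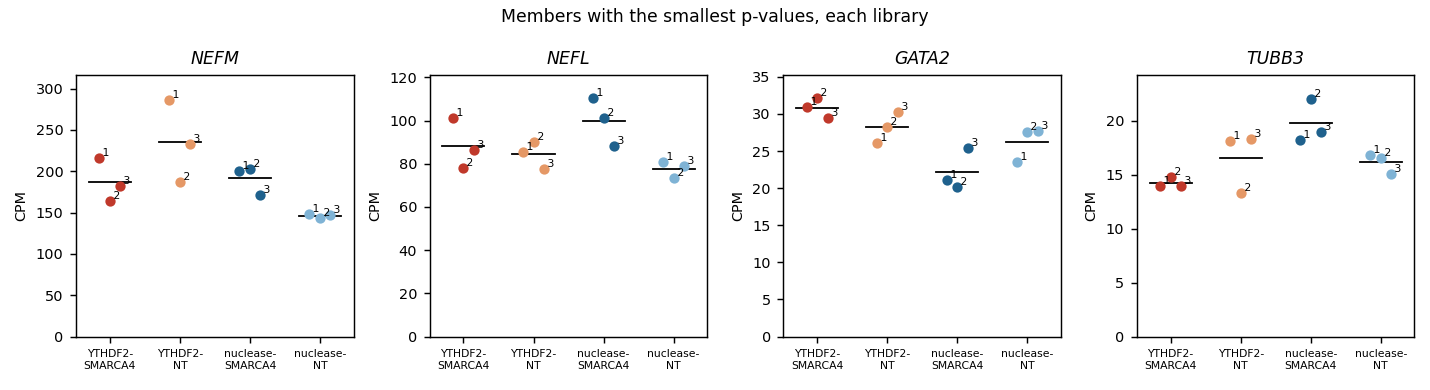
CPM of NEFM, NEFL, GATA2 and TUBB3 in each library, numbered by replicate, with the group mean as a bar; axes start at 0. NEFM is lowest in nuclease-NT, at 144 to 148.2 CPM, and most scattered in YTHDF2-NT, at 187.5 to 286.5 CPM.

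The difference of the guide effects, that with YTHDF2 minus that with the nuclease, was called by edgeR for 0 of 25 members and 0% of all genes tested; DESeq2 and limma on TPM called 0 members. At an unadjusted p below 0.05 there were 6 members, against 11.1% of all genes tested. For NEFM the difference was -0.72 (SE 0.192, 95% interval -1.13 to -0.31, adjusted p = 0.301), for KRT8 -0.44 (SE 0.143, adjusted p = 0.38) and for TUBB3 -0.51 (SE 0.180, adjusted p = 0.391, edgeR quasi-likelihood test). Over 21 alternatives of filter, scaling, method or libraries the NEFM difference ran from -0.85 to -0.32. With YTHDF2, NEFM averaged 187.3 CPM for the SMARCA4 guide, against 235.5 CPM for the NT guide. With the nuclease it averaged 191.7 CPM for the SMARCA4 guide, against 146.5 CPM for the NT guide. In mean CPM the 2 SMARCA4-guide groups were thus close, and the NT groups lay on either side of them. The libraries of the 2 YTHDF2 groups overlapped for NEFM in CPM, where YTHDF2-NT 1 was highest at 286.5. They overlapped in TPM too, where YTHDF2-SMARCA4 1 was highest at 112.1. Without YTHDF2-NT 2, 4 of 26 members (KRT18, KRT8, NEFM and TUBB3) were called, where 8.62% of all genes were.

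The intervals show what sizes of change the libraries leave. Within the nuclease, the 95% interval of the SMARCA4 guide effect lay inside a log2 fold change of -1 to 1, a doubling or its inverse, for 22 of 25 members; KRT17, OSR1 and PDGFRA, all under 1 TPM, were the others. Within YTHDF2 this held for 20 members, and for YTHDF2 over the nuclease it held for 22 with the NT guide and 21 with the SMARCA4 guide. A fold change that missed the threshold does not show that the level was the same.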

How the data were processed

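The authors deposited 1 table per library with estimated counts and TPM for 200401 transcripts. The submitters' processing notes name kallisto, sleuth and hg38. The deposited TPM values are length-normalized and keep no depth. Versions and the strand setting are not given in the sources used here. Kallisto shares reads among like sequences, so pseudogenes, overlapping genes and transcript models can trade estimated counts.

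TPM was summed per gene symbol with Python 3.11.15. Estimated counts were summed per gene ID, rounded and tested with edgeR 4.0.16 in R 4.3.3 (quasi-likelihood, TMM, filterByExpr, 1 mean per group over 12 libraries, two-sided, Benjamini-Hochberg over 16297 genes). CPM use TMM-scaled totals. Alternatives used DESeq2 1.42.0 and limma 3.58.1 on log2(TPM + 1), other filters, counts and libraries. The fit was checked on simulated counts. Gene positions are from GENCODE v29. For 3 libraries against 3, an exact permutation p cannot go below 0.1.

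The members and lists were chosen with earlier results of these data known. Members at 1 TPM or more are given with values, and per comparison the 3 members with the smallest p are named. From each wider list the 2 members with the highest TPM are named, and further ones were chosen after their values were seen. Values of a few genes of these lists are not reported here.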

Additional observations from a re-analysis of the deposited data

How the results depend on the processing

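The count of members called was 0 in all 5 comparisons and stayed 0 with DESeq2 size factors, limma on TPM, at least 1 CPM in 3 libraries, coding transcripts alone, length-scaled TPM and the length trend removed. Without a filter on low counts 2 members were called with the nuclease guide (NEFL, NEFM), 1 for YTHDF2 over the nuclease with the NT guide (NEFM), 1 with the SMARCA4 guide (GATA2) and 1 for the difference of guide effects (NEFM), each of 35 tested, where 0.963%, 1.04%, 0.856% and 1.43% of all 34569 genes were. DESeq2 called 1 (NEFM) with the NT guide and 1 (GATA2) with the SMARCA4 guide. Fits on only the groups compared called 2 with the nuclease guide (NEFL, NEFM) and 3 with the SMARCA4 guide (FBLN1, GATA2, TUBB3). Leaving out each library in turn gave 0 to 3 for the YTHDF2 guide, 0 to 3 for YTHDF2 over the nuclease with the NT guide and 0 to 4 for the difference, each time by leaving out YTHDF2-NT 2; the cause was not tested.

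With the replicate number as a block, 0 members were called in every comparison. Same-numbered libraries correlated between -0.47 and 0.22 in their deviations, and differently numbered ones between -0.31 and 0.48. The labels state no pairing, and these values do not settle whether the numbers pair the libraries. Over all genes the counts called ran, with a library left out, from 0 to 44, 0 to 1585, 1 to 1610, 1 to 70 and 0 to 1444 in the order of the text, and DESeq2 called 142, 3, 93, 102 and 38. The count of members at 1 TPM or more was 20 to 23 under other thresholds and rules and 21 to 22 with a library left out. Among the 3 members with the smallest p in each comparison, no fold change turned its direction. Some other members did turn, as given above for mesenchymal, neuronal and epithelial genes. Depth limits the members under 1 TPM, which had at most 20 counts in a library.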

Other observations

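In wider lists of the same tissues, the share of genes that averaged at least 1 TPM can be set only loosely against 25.7% of all gene symbols. Those symbols include pseudogenes and noncoding genes. Of 25 other kidney development genes 13 did, led by FOXC1, a forkhead factor of the mesoderm, at 49.1 TPM and CITED1, a cofactor of the nephron progenitor, at 31.1 TPM. The HOX genes of the metanephric region, HOXA11, HOXD11 and HOXC11, were at 17.4, 16.5 and 8.90 TPM. Of 20 other nephron genes 5 did, with SLC5A2, a glucose transporter, at 6.42 TPM (0.635 to 11.8 over the libraries) and PODXL, podocalyxin, at 5.47 TPM. Of 25 other neuronal genes 15 did, led by STMN1, a stathmin of dividing cells and neurons, at 552 TPM and UCHL1, a deubiquitinase, at 336.9 TPM.

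Of 24 other adrenal and catecholamine genes 8 did, led by SCARB1 at 27.1 TPM and FDXR at 26.6 TPM, which take up cholesterol and pass electrons to mitochondrial cytochromes in many tissues, and PHOX2A, a factor of noradrenergic neurons, was at 0. Of 29 other epithelial genes 11 did, led by SPINT2, a protease inhibitor, at 63.4 TPM and KRT10 at 62.6 TPM. Of 25 other mesenchymal genes 14 did, led by ACTA2, smooth muscle actin, at 24.0 TPM and SPARC, a matrix protein, at 22.3 TPM. In each of the 5 comparisons edgeR called 0 of the 19 kidney, 6 nephron, 20 neuronal, 9 adrenal, 14 epithelial and 18 mesenchymal genes of these lists that were tested. At an unadjusted p below 0.05 the highest count was 6 of 20 other neuronal genes, for the difference of guide effects, where 11.1% of all genes passed; the same list had 5 with the nuclease guide and 5 for YTHDF2 over the nuclease with the NT guide, against 10.9% of all genes in each.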
